A study of Mus musculus with 28 samples.

Results

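Rab GTPases are small membrane-bound switches that direct vesicle traffic, and the genes described here are those whose symbol in the deposited count tables is Rab followed by a number and at most a letter and a digit. This pattern found 59 of 24421 genes, and 48 of the 59 had enough counts to be tested. Bulk RNA-seq profiled dendritic cells that had been sorted from spleens of untreated C57Bl/6 mice aged 6 to 12 weeks. All mice carried Irf8fl/fl, a loxP-flanked gene for the transcription factor IRF8, and had no other treatment. Irf8fl/fl mice without Cre gave 8 libraries each of type 1 conventional dendritic cells (cDC1, CD24+), of type 2 conventional dendritic cells (cDC2, CD172a+) and of the plasmacytoid kind (pDC), called cDC1_WT, cDC2_WT and pDC_WT. Irf8fl/fl Itgax-cre mice gave 4 pDC libraries, called pDC_TG. The design text speaks of 4 replicates. No source used here says whether WT replicates 1 to 4 and 5 to 8 were separate experiments, and each set was therefore also fitted alone. In the Irf8fl/fl Itgax-cre mice, Cre is under the control of Itgax, the gene of the surface protein CD11c. CD11c is not confined to pDC, so that cDC of the same mice were targeted too.

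Each Rab protein cycles between a GDP-bound form held in the cytosol and a GTP-bound form on a particular membrane, where it recruits effectors such as tethers and motors. Exchange factors switch Rab proteins on, GTPase-activating proteins switch them off, and GDP dissociation inhibitors carry them between membranes. In dendritic cells this traffic moves antigen through phagosomes and lysosomes, brings MHC molecules and Toll-like receptors to the compartments where they act, and delivers cytokines to the surface. CD8 T cells are known to receive captured antigen mainly from cDC1 and CD4 T cells mainly from cDC2, while pDC are the main source of type I interferon.

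Levels are TMM-scaled CPM, that is counts relative to the library's scaled total, given as mean ± SD with n = 8 for each WT group and n = 4 for pDC_TG. Differences are log2 fold changes (log2FC) with the standard error (SE) of a quasi-likelihood fit of all 28 libraries in edgeR, and a gene passed the test when its Benjamini-Hochberg adjusted p over 13159 genes was below 0.05. Gene counts per library ran from 17299285 to 30787679. The sorted populations carried their defining markers: the sum of 6 pDC markers ran from 7667 to 10486 CPM for pDC_WT libraries and from 5090 to 6082 CPM for pDC_TG libraries, with at most 1076 CPM in any cDC library, and 5 cDC1 markers summed to 2380 to 3092 CPM in cDC1_WT and 66.5 to 86.4 in cDC2_WT. The 5 cDC2 markers summed to 2240 to 2720 CPM in cDC2_WT and at most 25.1 in cDC1_WT. In pDC_WT they also summed to 988 to 1573 CPM, largely from Cd209a (782 ± 198 CPM) and Sirpa (425 ± 62.2 CPM). Irf8 itself lay between 5379 and 6537 CPM in pDC_WT and between 1166 and 1787 CPM in pDC_TG (log2FC -2.07, SE 0.13, adjusted p = 4.43e-13), so that the groups did not overlap, and transcript remained. The counts are per gene, so reads from undeleted exons and from cells with an intact gene cannot be told apart.

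Promoter sequence is shown for 4 of the members that the results turn on: Rab33b and Rab32, the most abundant Rab transcripts per length in pDC_WT and cDC1_WT, and Rab39 and Rab19, which fell and rose in pDC_TG. Each window runs from 250 bases before to 50 bases after the RefSeq start of the gene in GRCm38.p6, which is the mm10 build of the files, and is written 5′ to 3′ on the gene's own strand. Capitals mark matches to 5 motifs that were searched on both strands. These were the interferon-stimulated response element core (GAAA and GAAA with 2 bases of any kind between them), the composite of an ETS and an IRF half-site (GGAA and GAAA with the same spacing), the PU.1 motif GAGGAAGT and the E-boxes CAGCTG and CAGGTG. The windows lie at chr3:51483716-51484015 on the plus strand for Rab33b, chr10:10558158-10558457 on the minus strand for Rab32, chr9:53706183-53706482 on the minus strand for Rab39 and chr6:39381103-39381402 on the plus strand for Rab19.
Rab33b: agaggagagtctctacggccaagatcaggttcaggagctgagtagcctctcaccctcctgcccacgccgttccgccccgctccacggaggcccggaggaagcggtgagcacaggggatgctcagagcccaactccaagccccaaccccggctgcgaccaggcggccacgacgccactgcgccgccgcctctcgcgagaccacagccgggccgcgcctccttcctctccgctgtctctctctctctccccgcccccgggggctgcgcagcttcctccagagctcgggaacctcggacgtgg
Rab32: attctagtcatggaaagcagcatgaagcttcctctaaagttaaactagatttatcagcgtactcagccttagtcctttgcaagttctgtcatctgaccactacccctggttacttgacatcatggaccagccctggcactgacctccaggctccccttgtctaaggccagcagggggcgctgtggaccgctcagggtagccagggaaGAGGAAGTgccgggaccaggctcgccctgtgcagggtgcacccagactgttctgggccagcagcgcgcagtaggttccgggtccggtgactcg
Rab39: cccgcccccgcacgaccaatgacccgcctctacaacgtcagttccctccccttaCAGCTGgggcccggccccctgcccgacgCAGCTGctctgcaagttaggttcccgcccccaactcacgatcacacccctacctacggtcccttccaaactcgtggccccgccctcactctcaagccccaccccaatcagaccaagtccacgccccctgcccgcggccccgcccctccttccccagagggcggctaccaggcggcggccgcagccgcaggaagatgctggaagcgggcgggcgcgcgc
Rab19: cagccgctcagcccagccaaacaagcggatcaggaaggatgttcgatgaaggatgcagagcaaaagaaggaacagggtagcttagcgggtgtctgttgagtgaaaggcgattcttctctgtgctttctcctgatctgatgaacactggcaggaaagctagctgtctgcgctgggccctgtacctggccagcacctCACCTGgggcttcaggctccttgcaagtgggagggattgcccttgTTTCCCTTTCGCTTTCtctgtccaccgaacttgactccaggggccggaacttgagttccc

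The RefSeq promoter table held 60 windows of 48 of the 59 Rab genes, and Rab7b and Rab38 were not among them. The interferon-stimulated response element core occurred in 3.44% of all 32851 windows and in 1 of the 60 Rab windows, that of Rab19. Rab19 carried 2 overlapping copies within the capitals TTTCCCTTTCGCTTTC, which are the reverse strand of the motif and begin 10 and 4 bases before the start. Its capitals CACCTG, 55 bases before the start, are the reverse strand of CAGGTG, which was present in 20.2% of all windows and 16.7% of the Rab windows. Rab32 held the PU.1 motif 43 bases before its start, a motif found in 3.20% of all windows and in 2 Rab windows, the other being that of Rab2b. The window of Rab39 had CAGCTG at 196 and at 168 bases before the start, where 16.3% of all windows and 23.3% of the Rab windows held this E-box. The composite of ETS and IRF half-sites was found in the window of Rab11b alone among Rab genes and in 2.72% of all windows. None of the 5 motifs occurred in the window of Rab33b, or in the 4 windows of Rab43, which are not shown. A match describes the letters only, and binding was not measured.

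Most of the family was expressed in these cells. Of the 59 Rab genes, 45 reached a mean of 1 CPM in some group, 41 reached 10 CPM and 20 reached 100 CPM. The 11 members that were not tested were Rab3b, Rab3c, Rab9b, Rab15, Rab17, Rab25, Rab27b, Rab33a, Rab40b, Rab42 and Rab44. No group mean among them exceeded 0.388 CPM and no library exceeded 1.36 CPM, and Rab15 had no count in any library. Rab27b, the close relative of the secretory Rab27a, averaged 0.168 ± 0.280 CPM in pDC_WT and 0.240 ± 0.455 CPM in pDC_TG. Rab3b and Rab3c, which have been studied in the recycling of MHC class I molecules in dendritic cells, stayed at or below 0.0761 CPM on average in every group. Of the 48 tested members, 20 had their highest mean in cDC1_WT, 12 in pDC_TG, 9 in cDC2_WT and 7 in pDC_WT. These places rank means without a test, and only 3 members passed as higher in pDC_TG than in pDC_WT. The matching shares over all genes were not determined, so no preference of the family is read from them.

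The summed level of the family was largest in cDC1. It amounted to 7132 ± 107 CPM in cDC1_WT, 4846 ± 43.1 CPM in cDC2_WT, 4297 ± 244 CPM in pDC_WT and 3935 ± 94.6 CPM in pDC_TG. The libraries of cDC1_WT, from 6991 to 7272 CPM, lay above all other libraries, those of cDC2_WT ran from 4783 to 4914 CPM, those of pDC_WT from 3762 to 4573 CPM, and those of pDC_TG, from 3855 to 4071 CPM, lay within the range of pDC_WT. Much of the lead over cDC2_WT came from Rab43, Rab32 and Rab7b. Their means were 1015, 832 and 481 CPM in cDC1_WT and 377, 183 and 0.709 CPM in cDC2_WT. Rab43 shares most of its exonic bases with another locus, as given below. Over the 48 tested members the median log2FC of cDC1_WT over cDC2_WT was 0.11, with 15 higher, 9 lower and 24 not passing. In bulk samples such as these, fewer cells of a type and less RNA per cell cannot be told apart.

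Levels of different genes were compared per kilobase of exon. On this scale the first place differed between the WT populations, while Rab7, Rab1b and Rab10 were among the first 5 in every group. In pDC_WT, Rab33b led with 179 ± 21.4 CPM per kb, 14.6% ± 1.35 of the family's sum per kb, followed by Rab7 with 119 ± 10.8, Rab1b with 102 ± 13.2 and Rab10 with 96.9 ± 8.17 CPM per kb. In cDC1_WT, Rab32 led with 356 ± 39.3 CPM per kb, a share of 17.6% ± 1.60, followed by Rab43 with 184 ± 20.2 and Rab7 with 168 ± 11.4 CPM per kb. Rab7, the switch for fusion of late endosomes with lysosomes, led in cDC2_WT with 135 ± 5.33 CPM per kb, a share of 10.2% ± 0.337, ahead of Rab8a with 108 ± 7.83 and Rab8b with 98.5 ± 6.91 CPM per kb. In pDC_TG the first 3 places lay close together, with Rab7 at 117 ± 2.42, Rab1b at 107 ± 10.9 and Rab33b at 105 ± 14.7 CPM per kb, and these neighbours did not differ beyond their spread.

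**Figure D1:**
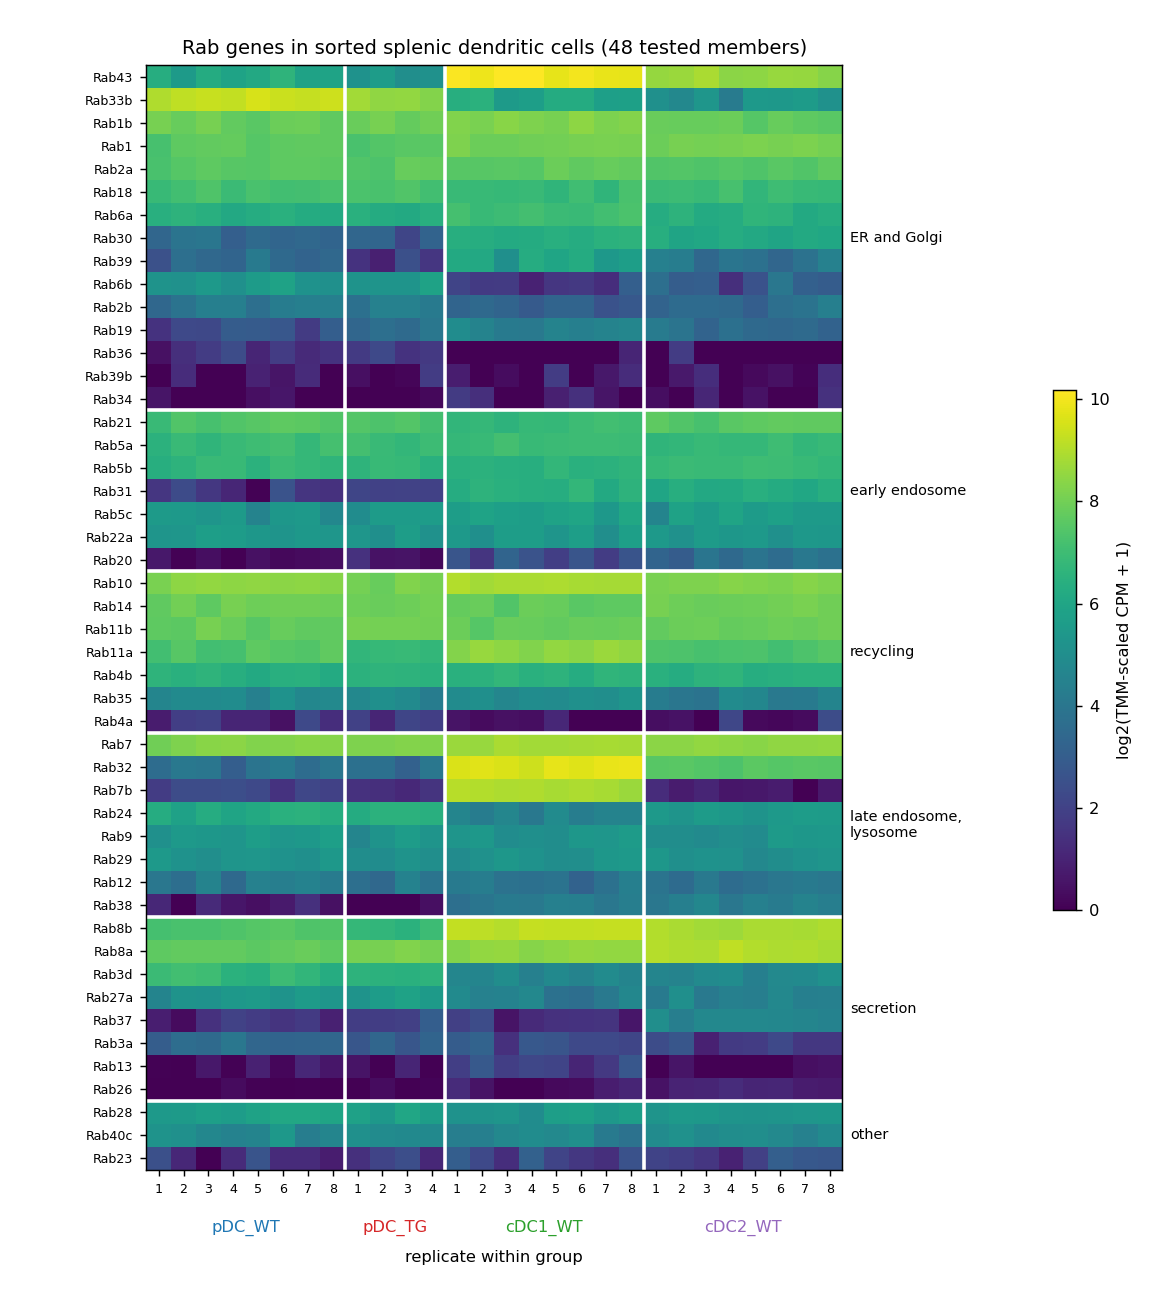
Levels of the 48 tested Rab genes in each of the 28 libraries, as log2 of TMM-scaled CPM plus 1, with genes in rows grouped by compartment and libraries in columns grouped by population. Rab33b is bright in the pDC columns, Rab32, Rab43 and Rab7b in the cDC1 columns, and rows such as Rab1b, Rab2a, Rab14 and Rab4b look alike in all columns.

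Which Rab genes distinguish the WT populations was examined first. In pDC_WT against cDC1_WT, 14 of the 48 tested Rab genes were higher and 20 lower, together 70.8%, where 60.9% of all 13159 genes passed the test (30.3% higher and 30.6% lower). The median log2FC was -0.16 over the tested Rab genes and 0.03 over all genes. In pDC_WT against cDC2_WT, 12 Rab genes were higher and 13 lower, 52.1% against 57.1% of all genes (28.3% higher and 28.8% lower), with medians of 0.00 and 0.01. In cDC1_WT against cDC2_WT, 15 were higher and 9 lower, 24 of 48 in all, against 46.2% of all genes (22.8% higher and 23.4% lower), with medians of 0.11 and -0.01. The 3 comparisons share groups, and members passed only where some group had enough counts, so the counts are a description of these libraries. The split depended on the scaling: with total counts in place of TMM factors the median of all genes moved by 0.25 in pDC_WT against cDC1_WT and the Rab calls became 20 higher and 18 lower, and in pDC_WT against cDC2_WT it moved by 0.15 and they became 19 higher and 12 lower. Markers of macrophages and monocytes, of which 6 of 6 had counts in each population, gave sums between 1950 and 2603 CPM for pDC_WT, between 85.1 and 147 CPM for cDC1_WT and between 803 and 1073 CPM for cDC2_WT. In pDC_WT the sum was nearly all Ly6c2 (2373 ± 228 CPM), with C1qa, C1qb, Adgre1, Csf1r and Vcam1 at means of 0.382 to 4.38 CPM, whereas Csf1r (486 ± 79.4 CPM) and Adgre1 (370.4 ± 30.9 CPM) led in cDC2_WT. The part of such cells in these differences was not tested.

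Among the Rab proteins of the endoplasmic reticulum and Golgi, 5 of 15 tested genes were higher and 7 lower in pDC_WT than in cDC1_WT (80.0%, against 60.9% of all genes), and 4 were higher and 4 lower than in cDC2_WT (53.3%, against 57.1%). Rab33b, a Golgi Rab that also binds the autophagy protein ATG16L1, ranged from 494 to 757 CPM with a median of 637 in pDC_WT, from 45.5 to 90.5 CPM with a median of 64.8 in cDC1_WT and from 17.7 to 46.9 CPM with a median of 37.0 in cDC2_WT. Every pDC_WT library lay above every cDC library. The mean was 9.57-fold higher than in cDC1_WT (log2FC 3.26, SE 0.17, adjusted p = 1.27e-16) and 17.7-fold higher than in cDC2_WT (log2FC 4.15, SE 0.18, adjusted p = 1.18e-18). Its only annotated overlap, on 18.7% of its exonic bases, was with an antisense locus that has no row in the count tables.

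Rab6b, a close relative of the retrograde Golgi-to-ER switch Rab6a and best known from neurons, was the other Golgi member that marked pDC. It averaged 40.5 ± 8.61 CPM in pDC_WT, 2.78 ± 2.02 CPM in cDC1_WT and 7.89 ± 4.25 CPM in cDC2_WT. The lowest pDC_WT library, at 33.2 CPM, was above the highest cDC library, at 15.4 CPM (log2FC 3.87, SE 0.36, adjusted p = 1.05e-10 against cDC1_WT and log2FC 2.36 against cDC2_WT). Rab6a went the other way and was highest in cDC1_WT at 132 ± 14.3 CPM, against 81.3 ± 7.84 in pDC_WT and 84.1 ± 11.0 in cDC2_WT (log2FC -0.70 for pDC_WT over cDC1_WT and 0.65 for cDC1_WT over cDC2_WT). An antisense gene that was also counted, Mrpl48, shares 19.0% of the exonic bases of Rab6a.

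Rab43 was the most abundant member by CPM in cDC1_WT. It is a Golgi-associated Rab that has been studied in cross-presentation by cDC1, the display of captured antigen on MHC class I. Its level ran from 889.9 to 1161 CPM with a median of 997 in cDC1_WT, from 319 to 467 CPM with a median of 377 in cDC2_WT and from 46.0 to 97.4 CPM with a median of 64.2 in pDC_WT. The 3 populations did not overlap, and cDC1_WT was 2.69-fold above cDC2_WT (log2FC 1.43, SE 0.12, adjusted p = 1.02e-11) and 14.9-fold above pDC_WT (log2FC -3.90 for pDC_WT over cDC1_WT, adjusted p = 1.3e-21). Annotation places 75.4% of the exonic bases of Rab43 under a further locus on the same strand, Gm45140, which has no row in the count tables, so reads from the shared bases cannot be told apart.

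Rab39, which has been linked to phagosome maturation and cross-presentation, followed the same order at a lower level, with 60.9 ± 17.2 CPM in cDC1_WT, 15.1 ± 4.71 in cDC2_WT and 10.1 ± 3.45 in pDC_WT. Libraries of cDC1_WT, from 32.3 to 78.8 CPM, all lay above those of cDC2_WT (log2FC 2.01, SE 0.26, adjusted p = 1.25e-07) and of pDC_WT (log2FC -2.59). Between pDC_WT and cDC2_WT the libraries overlapped and Rab39 did not pass the test (log2FC -0.58, SE 0.25, adjusted p = 0.0533), although it passed in the fit with relative log expression factors (adjusted p = 0.048), with these 2 groups alone (0.0353) and by DESeq2 (0.0432). Rab19, the nearest relative of Rab43, averaged 21.9 ± 4.39 CPM in cDC1_WT, 11.4 ± 3.29 in cDC2_WT and 4.75 ± 2.08 in pDC_WT, the last lower than both (-2.21 and -1.27 as log2FC). Rab30, another Golgi Rab, was high in both cDC populations, at 82.7 ± 7.59 and 69.2 ± 7.43 CPM, and low in pDC_WT at 10.5 ± 2.68 CPM (log2FC -2.98, SE 0.16, adjusted p = 2.71e-16 and log2FC -2.72, SE 0.16, adjusted p = 2.16e-15 against cDC1_WT and cDC2_WT).

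The switches of the early secretory pathway varied less between populations. Rab1b, which acts between the endoplasmic reticulum and the Golgi, ranged over group means from 215 ± 20.9 CPM in cDC2_WT to 303 ± 25.5 CPM in cDC1_WT (log2FC 0.50 between them). Its relative Rab1 averaged 196 ± 21.9 CPM in pDC_WT, below 263 ± 20.5 in cDC1_WT and 270.2 ± 17.6 in cDC2_WT, with log2FC -0.42 and -0.46. Rab2a, a Rab of ER-to-Golgi traffic, lay between 177 ± 13.1 CPM in cDC2_WT and 202 ± 20.0 CPM in cDC1_WT, and Rab18, of the ER and lipid droplets, between 119 ± 16.3 CPM in cDC1_WT and 140.1 ± 16.6 CPM in pDC_WT. Rab2b was higher in pDC_WT, at 16.9 ± 4.28 CPM, than in cDC1_WT at 7.77 ± 1.80 CPM (log2FC 1.12). However, 64.0% of its exonic bases are shared with the antisense loci Gm43766 and Tox4, and the protocol marks no strand. Gm43766 was not among the counted genes, and the share of Tox4 alone was not determined. Rab34, Rab36 and Rab39b stayed at or below a group mean of 2.55 CPM, and of these Rab36 was higher in pDC_WT than in cDC1_WT (1.90 ± 1.15 against 0.138 ± 0.391 CPM, log2FC 3.78, adjusted p = 0.0176).

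Among early endosomal members, Rab31 was high in both cDC populations and nearly silent in pDC. Rab31, which acts between the trans-Golgi network and early endosomes, ran from 72.2 to 106 CPM with a median of 84.8 in cDC1_WT, from 63.2 to 84.2 CPM with a median of 74.2 in cDC2_WT and from 0.0485 to 5.00 CPM with a median of 2.03 in pDC_WT. No pDC_WT library reached the cDC range (log2FC -5.24, SE 0.32, adjusted p = 8.58e-15 and log2FC -5.03, SE 0.31, adjusted p = 2.11e-14 against cDC1_WT and cDC2_WT), and between the cDC populations the gene did not pass the test (log2FC 0.21, adjusted p = 0.531). Rab20, a Rab of phagosomes and endosomes, averaged 0.248 ± 0.192 CPM in pDC_WT, 4.64 ± 2.23 in cDC1_WT and 11.8 ± 3.11 in cDC2_WT. The difference of Rab20 from pDC_WT held for both cDC groups (log2FC -4.24 and -5.59), while that between cDC1_WT and cDC2_WT (log2FC -1.35, SE 0.45, adjusted p = 0.0136) had overlapping libraries and an adjusted p of 0.422 with WT replicates 1 to 4 alone. An antisense RNA, E230013L22Rik, shares 25.6% of the exonic bases of Rab20.

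The Rab5 proteins, which drive fusion of early endosomes, differed little. Rab5a averaged 118 ± 17.5 CPM in pDC_WT, 122 ± 8.56 in cDC1_WT and 111 ± 8.60 in cDC2_WT and passed in none of the 3 comparisons. With total counts in place of TMM factors, Rab5a passed as higher in pDC_WT than in cDC1_WT (log2FC 0.21, adjusted p = 0.0276), against a log2FC of -0.04 with TMM, and as higher than in cDC2_WT (0.25, adjusted p = 0.0117). Rab5b was highest in cDC2_WT at 118 ± 6.92 CPM, against 91.9 ± 8.07 in cDC1_WT (log2FC -0.36), and Rab5c was lower in pDC_WT, at 38.4 ± 9.17 CPM, than in cDC1_WT at 54.9 ± 7.72 CPM (log2FC -0.51). Rab21, known from integrin uptake, was lowest in cDC1_WT at 115 ± 14.5 CPM, against 191 ± 21.8 in cDC2_WT (log2FC -0.73, SE 0.10, adjusted p = 2.28e-07) and 169.9 ± 26.8 in pDC_WT. Rab22a, a relative of Rab31 studied in the sorting of MHC class I molecules, lay between 40.7 ± 4.61 and 43.9 ± 8.50 CPM in the WT groups and passed in no comparison.

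Among late endosomal and lysosomal members, Rab7b had the largest log2FC of all tested Rab genes in both comparisons with cDC1_WT. Rab7b, a relative of Rab7 that works between late endosomes and the trans-Golgi network, ran from 398 to 544 CPM with a median of 487 in cDC1_WT. In cDC2_WT it ran from 0 to 1.43 CPM with a median of 0.673, and in pDC_WT from 1.80 to 4.40 CPM with a median of 3.63. No library outside cDC1_WT exceeded 4.40 CPM, so that the populations were far apart. The fitted difference was 679-fold over cDC2_WT (log2FC 9.41, SE 0.29, adjusted p = 4.41e-21) and 141-fold over pDC_WT (log2FC -7.14 for pDC_WT over cDC1_WT).

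Rab32 and Rab38 are related switches of lysosome-related organelles, and both are known from pigment granules. Rab32 ran from 676 to 956 CPM with a median of 841 in cDC1_WT, from 162 to 197 CPM with a median of 184 in cDC2_WT and from 7.27 to 17.4 CPM with a median of 14.5 in pDC_WT, with no overlap between the 3 populations. It was 4.55-fold higher in cDC1_WT than in cDC2_WT (log2FC 2.19, SE 0.13, adjusted p = 4.1e-15) and 62.2-fold higher than in pDC_WT (log2FC -5.96 for pDC_WT over cDC1_WT, adjusted p = 2.27e-24). Rab38 did not separate the cDC populations, at 17.0 ± 2.93 CPM in cDC1_WT and 19.6 ± 3.38 CPM in cDC2_WT (log2FC -0.21, adjusted p = 0.708), and was far lower in pDC_WT at 0.761 ± 0.567 CPM (log2FC -4.47, SE 0.47, adjusted p = 1.17e-09 and log2FC -4.67, SE 0.47, adjusted p = 6.02e-10). BLOC-3, the exchange factor for both proteins, consists of Hps1 and Hps4, which were looked at after these values were seen. Hps4 was highest in cDC1_WT, at 43.7 ± 5.88 CPM against 18.3 ± 4.63 in cDC2_WT (log2FC 1.26), whereas Hps1 was lower in cDC1_WT, at 50.8 ± 8.77 CPM, than in cDC2_WT at 74.6 ± 11.5 CPM (log2FC -0.55).

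Rab7 itself was abundant in every population, with 439 ± 29.8 CPM in cDC1_WT, 352 ± 13.9 in cDC2_WT and 310.1 ± 28.1 in pDC_WT (log2FC -0.50, SE 0.06, adjusted p = 4.94e-09 against cDC1_WT). The smaller difference of Rab7 between pDC_WT and cDC2_WT (log2FC -0.18, adjusted p = 0.00665) no longer passed with total counts alone (adjusted p = 0.647), with WT replicates 1 to 4 (0.0922) or with WT replicates 5 to 8 (0.0519). Rab24, linked to autophagy, was higher in pDC_WT at 75.4 ± 12.1 CPM than in cDC2_WT at 43.0 ± 4.50 and cDC1_WT at 21.8 ± 4.06 CPM (log2FC 0.81 and 1.79). The antisense gene Prelid1, which was also counted, shares 62.4% of the exonic bases of Rab24, so without strand reads from the shared bases cannot be told apart. Whether such reads were counted for Rab24 or set aside as ambiguous is not given. Rab9, Rab12 and Rab29 passed in none of the 3 comparisons, with group means from 14.2 ± 2.40 CPM for Rab12 in cDC2_WT to 42.4 ± 6.11 CPM for Rab9 in pDC_WT.

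Of 8 tested members of regulated secretion, 3 were higher and 4 lower in pDC_WT than in either cDC population (87.5%, against 60.9% of all genes for cDC1_WT and 57.1% for cDC2_WT). Rab3d, a Rab of secretory granules, ran from 77.7 to 135 CPM with a median of 114 in pDC_WT, from 20.4 to 30.8 CPM with a median of 24.1 in cDC1_WT and from 20.3 to 34.7 CPM with a median of 27.4 in cDC2_WT, without overlap (log2FC 2.11, SE 0.13, adjusted p = 2.59e-15 and log2FC 2.02, SE 0.12, adjusted p = 7.79e-15). Rab27a, which docks secretory granules and has been studied at the phagosomes of dendritic cells, averaged 38.4 ± 7.37 CPM in pDC_WT, 20.4 ± 6.23 in cDC1_WT and 21.6 ± 5.39 in cDC2_WT. Its libraries overlapped, and the difference from cDC1_WT (log2FC 0.91, adjusted p = 5.25e-05) had an adjusted p of 0.075 with WT replicates 1 to 4 alone. Rab3a, best known from synaptic vesicles, was highest in pDC_WT at 10.0 ± 2.56 CPM, against 4.90 ± 2.19 in cDC1_WT and 2.94 ± 1.49 in cDC2_WT (log2FC 1.03 and 1.76).

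Rab37, a Rab of secretory granules in mast cells, was the member that marked cDC2. It ran from 19.6 to 31.3 CPM with a median of 25.6 in cDC2_WT, from 0.435 to 4.18 CPM with a median of 1.79 in cDC1_WT and from 0.214 to 2.97 CPM with a median of 1.82 in pDC_WT, and no library of the other WT groups reached the cDC2_WT range (log2FC -3.76, SE 0.42, adjusted p = 1.01e-08 for cDC1_WT over cDC2_WT and -3.91 as log2FC for pDC_WT over cDC2_WT). Rab8a and Rab8b, which carry vesicles from the trans-Golgi network to the surface, were both lowest in pDC_WT, at 209 ± 11.3 and 165 ± 16.1 CPM. In cDC1_WT they stood at 358 ± 25.4 and 597 ± 30.9 CPM and in cDC2_WT at 507 ± 36.7 and 466 ± 32.7 CPM. Rab8a was thus lower in cDC1_WT than in cDC2_WT (log2FC -0.50, SE 0.06, adjusted p = 5.79e-09) and Rab8b higher (log2FC 0.36, SE 0.07, adjusted p = 4.17e-05), each without overlap. Rab13, a Rab of polarised exocytosis, was highest in cDC1_WT at 3.43 ± 1.73 CPM (log2FC 4.37, SE 1.11, adjusted p = 0.00162 over cDC2_WT), and Rab26 did not exceed a mean of 0.937 ± 0.331 CPM.

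Recycling Rab proteins return receptors from endosomes to the surface. Of 7 tested members, 2 were higher and 2 lower in pDC_WT than in cDC1_WT (57.1%, against 60.9% of all genes). In pDC_WT against cDC2_WT, 2 were higher and none lower (28.6%, against 57.1% of all genes). Between the cDC populations, 3 were higher and 1 lower in cDC1_WT than in cDC2_WT (57.1%, against 46.2%). Rab11a, which defines recycling endosomes, ran from 303 to 404 CPM with a median of 354 in cDC1_WT, from 136 to 187 CPM with a median of 159 in cDC2_WT and from 137 to 207 CPM with a median of 175 in pDC_WT. Every cDC1_WT library was above every other (log2FC 1.15, SE 0.09, adjusted p = 1.29e-12 over cDC2_WT and log2FC -1.06 for pDC_WT over cDC1_WT), while pDC_WT and cDC2_WT overlapped (0.10, adjusted p = 0.341). Rab10, known from delivery of Toll-like receptor 4 and glucose transporter vesicles to the surface, was also highest in cDC1_WT at 468 ± 24.5 CPM, against 298 ± 14.6 in cDC2_WT (log2FC 0.65, SE 0.06, adjusted p = 2.05e-10) and 340.3 ± 28.7 in pDC_WT. Rab11b, Rab4b and Rab4a did not pass between cDC1_WT and cDC2_WT, and Rab11b lay between 215 ± 26.3 CPM in pDC_WT and 232 ± 14.6 CPM in cDC2_WT. Rab14, of early endosome recycling, was slightly lower in cDC1_WT, at 208 ± 22.7 CPM, than in cDC2_WT at 252 ± 17.4 CPM (-0.28), with an adjusted p of 0.164 with WT replicates 1 to 4 alone. Rab35 was higher in cDC1_WT, at 31.0 ± 4.06 CPM, than in cDC2_WT at 19.7 ± 5.60 CPM (0.66), with an adjusted p of 0.0565 under the same restriction. Of the remaining genes, Rab28 averaged 55.6 ± 9.24 CPM in pDC_WT and 39.4 ± 2.47 in cDC2_WT (log2FC 0.50, adjusted p = 0.000661, and 0.139 with WT replicates 1 to 4 alone), and Rab23 and Rab40c passed in none of the 3 comparisons.

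**Figure D2:**
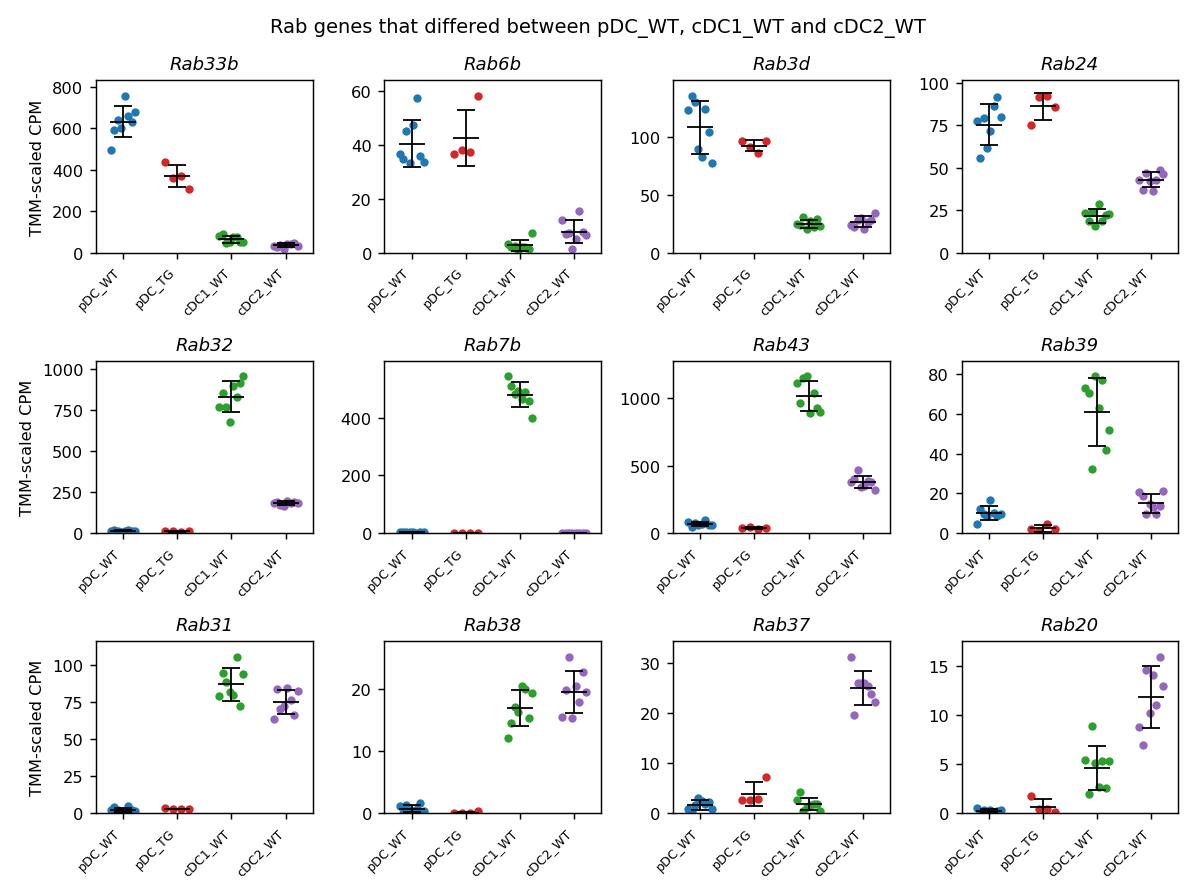
TMM-scaled CPM of 12 Rab genes in each library of the 4 groups, with 1 point per library and bars at the mean ± SD; each panel has its own linear axis from 0. Rab33b, Rab6b, Rab3d and Rab24 are highest in the pDC groups, Rab32, Rab7b, Rab43 and Rab39 in cDC1_WT, Rab31 and Rab38 in both cDC groups, and Rab37 and Rab20 in cDC2_WT.

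How the family responds when Irf8 is targeted in pDC was then examined. In pDC_TG against pDC_WT, 3 of the 48 tested Rab genes rose (Rab8a, Rab11b and Rab19) and 8 fell (Rab7b, Rab8b, Rab10, Rab11a, Rab33b, Rab38, Rab39 and Rab43). This was 22.9% of the tested members, where 14.8% of all 13159 genes passed the test, 7.72% higher and 7.04% lower. The median log2FC was -0.02 over the tested Rab genes and 0.00 over all genes. By compartment, 1 gene rose and 3 fell of 15 at the endoplasmic reticulum and Golgi, 1 rose and 2 fell of 7 in recycling, 1 rose and 1 fell of 8 in secretion, 2 of 8 late endosomal and lysosomal genes fell, and none of 7 early endosomal genes passed in edgeR (1 of 7, Rab20, at an unadjusted p below 0.05 and by DESeq2). The comparison shares its pDC_WT libraries with those above, so the values of each stand side by side with no relation drawn between them.

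The pDC_TG libraries also differed in markers of other cells. The 4 plasma cell markers, all with counts in both groups, summed to 1033 to 1275 CPM in pDC_TG and 206 to 374 CPM in pDC_WT. In pDC_TG the sum came largely from Sdc1, which ran from 873 to 1221 CPM, against 36.8 to 66.5 CPM in pDC_WT. Jchain averaged 47.2 ± 29.7 CPM in pDC_TG and 23.1 ± 27.1 CPM in pDC_WT, with overlapping libraries. Tnfrsf17 averaged 0.196 and 0.0247 CPM, whereas Mzb1 was lower in pDC_TG, at 40.1 ± 23.5 against 197 ± 57.2 CPM. The 4 T cell markers summed to 38.3 to 93.6 CPM in pDC_TG and 3.25 to 7.98 CPM in pDC_WT, nearly all from Lck (66.4 ± 25.7 and 4.12 ± 1.47 CPM). The defining genes Cd3e, Cd3d and Cd3g stayed near 0 in both groups, with means of 0.496, 0.127 and 0.0479 CPM in pDC_TG and 0.359, 0.104 and 0.418 CPM in pDC_WT. The 5 cDC1 markers summed to 469 to 861 CPM in pDC_TG and 336 to 409 CPM in pDC_WT. Cd8a made the sum higher (660.0 ± 161 against 267 ± 35.7 CPM). Tlr3 was also higher on average, at 2.48 ± 1.99 against 0.204 ± 0.372 CPM, with overlapping libraries. Clec9a was lower (6.60 ± 2.72 against 91.6 ± 19.9 CPM), Xcr1 averaged 1.31 against 1.96 CPM, and Batf3 had no count in any pDC_TG library. The 5 cDC2 markers summed to less, 598 to 695 CPM against 988 to 1573 CPM, with Cd209a at 320.0 ± 18.3 against 782 ± 198 CPM and Itgam at 31.9 ± 8.49 against 0.401 ± 0.663 CPM. The 8 neutrophil markers summed to 195 CPM in pDC_TG replicate 4, against a median of 2.47 CPM in pDC_TG and at most 2.43 CPM in pDC_WT, where Camp, Mpo and Elane had no count. Without pDC_TG replicate 4, which alone carried the neutrophil markers at this level, all 8 falls and 3 rises still passed. The part of the plasma cell, T cell, cDC1 and cDC2 markers, whose sums did not overlap between the groups, was not tested.

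At the Golgi, Rab33b fell from a range of 494 to 757 CPM with a median of 637 in pDC_WT to 436, 361, 372 and 309.7 CPM in pDC_TG replicates 1 to 4. The 4 values lay below all 8 of pDC_WT and above all cDC libraries (log2FC -0.77, SE 0.19, adjusted p = 0.0056). With pDC_WT replicates 1 to 4 alone the adjusted p was 0.0766, at a log2FC of -0.66.

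Rab39 fell too. It ran from 4.78 to 16.8 CPM with a median of 9.76 in pDC_WT and stood at 1.84, 0.870, 4.56 and 2.04 CPM in pDC_TG, again without overlap, and the mean was 4.31-fold lower (log2FC -2.11, SE 0.35, adjusted p = 5.59e-05). Rab43 fell from a range of 46.0 to 97.4 CPM with a median of 64.2 to 35.2, 48.1, 31.4 and 34.9 CPM, where pDC_TG replicate 2 overlapped the lowest pDC_WT library at 46.0 CPM (log2FC -0.86, SE 0.15, adjusted p = 7.07e-05). Rab19 rose from a range of 1.83 to 7.14 CPM with a median of 4.80 in pDC_WT to 9.33, 12.3, 10.3 and 15.5 CPM in pDC_TG. All 4 values exceeded all 8, and the mean was 2.50-fold higher (log2FC 1.32, SE 0.28, adjusted p = 0.000915). The pDC_TG mean of Rab19, 11.9 ± 2.71 CPM, was close to that of cDC2_WT, 11.4 ± 3.29 CPM, a difference that was not tested.

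Among the vesicle carriers to the surface, the paired genes Rab8a and Rab8b moved in opposite directions. Rab8a rose from a range of 194 to 232 CPM with a median of 209.6 to 275, 270.0, 304 and 275 CPM (log2FC 0.43, SE 0.07, adjusted p = 1.94e-05), and Rab8b fell from a range of 146 to 192 CPM with a median of 165 to 109.8, 102, 89.5 and 124 CPM (log2FC -0.64, SE 0.08, adjusted p = 1.3e-06). Neither overlapped between the groups. Rab11a and Rab11b, the recycling endosome pair, did likewise. Rab11a fell from a range of 137 to 207 CPM with a median of 175 to 104, 111, 117 and 106 CPM, without overlap (log2FC -0.63, SE 0.11, adjusted p = 6.2e-05).

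Rab11b rose from a range of 187 to 270.3 CPM with a median of 208 to 271, 268, 267 and 256 CPM, with the highest pDC_WT library inside the pDC_TG range (log2FC 0.30, SE 0.08, adjusted p = 0.00996). With pDC_WT replicates 1 to 4 alone Rab11b did not pass (log2FC 0.24, adjusted p = 0.186). Rab10 fell from a range of 278 to 373 CPM with a median of 348 to 263, 224, 303 and 276 CPM, with overlap at the lowest pDC_WT library (log2FC -0.35, SE 0.08, adjusted p = 0.00109).

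The 2 late endosomal falls concerned genes at low levels in pDC. Rab7b fell from a range of 1.80 to 4.40 CPM with a median of 3.63 to 1.73, 1.59, 1.23 and 1.91 CPM (log2FC -1.07, SE 0.30, adjusted p = 0.0121), and the highest pDC_TG value lay above the lowest of pDC_WT. Its adjusted p was 0.101 with pDC_WT replicates 5 to 8, 0.118 with the 2 pDC groups alone and 0.0596 without pDC_TG replicate 3. Rab38 ran from 0 to 1.66 CPM with a median of 0.608 in pDC_WT and had counts in 1 of 4 pDC_TG libraries, at 0, 0, 0 and 0.319 CPM (log2FC -3.09, SE 0.74, adjusted p = 0.00357). The call rested on 160 counts over pDC_WT and 10 over pDC_TG, and the adjusted p was 0.0542 with pDC_WT replicates 1 to 4 and 0.174 with the 2 pDC groups alone.

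**Figure D3:**
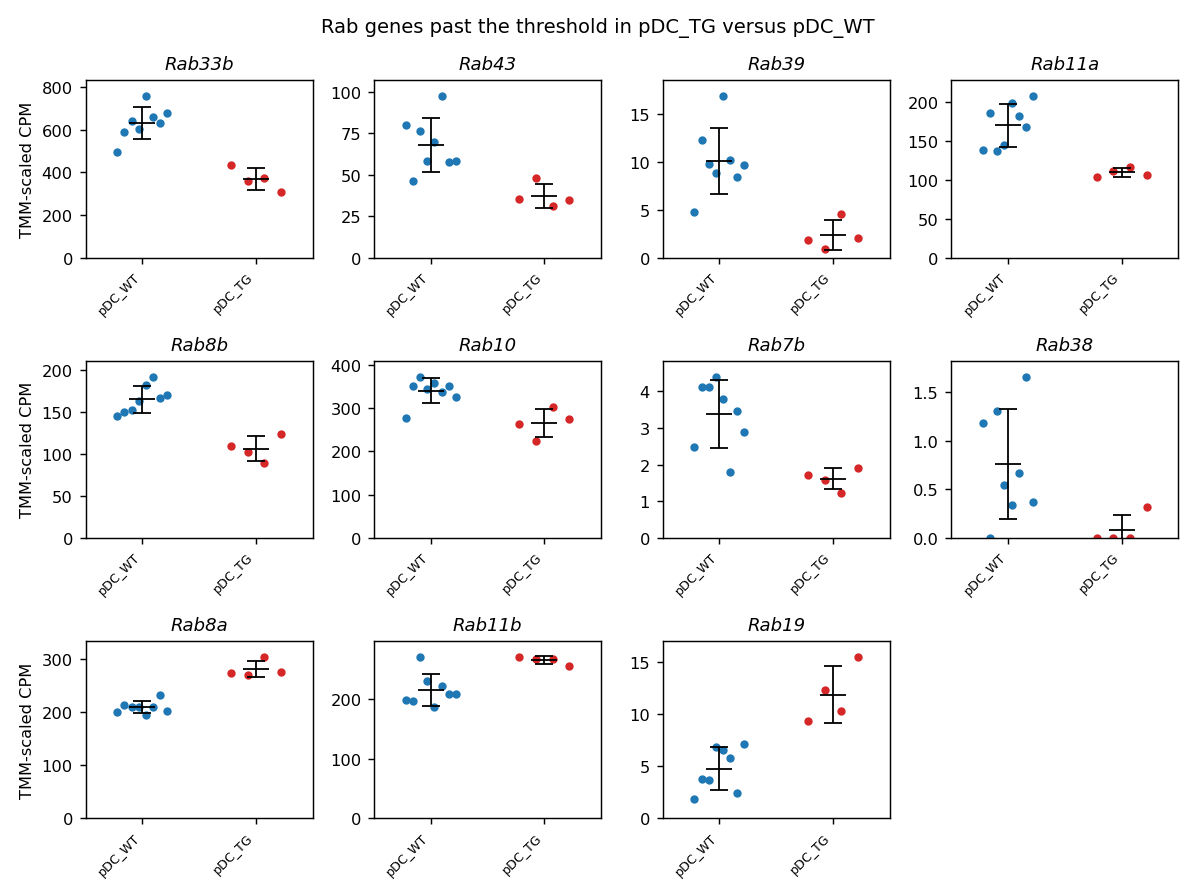
TMM-scaled CPM of the 11 Rab genes that passed the test in pDC_TG against pDC_WT, with 1 point per library (8 pDC_WT, 4 pDC_TG) and bars at the mean ± SD, on linear axes from 0. Rab33b, Rab39, Rab11a, Rab8b, Rab8a and Rab19 have no overlap between the groups, while Rab43, Rab10, Rab7b, Rab38 and Rab11b do.

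The other 37 tested members did not pass in pDC_TG. Rab20 and Rab37 had the highest log2FC among them, at 1.50 (adjusted p = 0.0844) and 1.21 (adjusted p = 0.0782). Rab20 stood at 1.77, 0.416, 0.433 and 0.160 CPM in pDC_TG against a range of 0 to 0.591 CPM with a median of 0.258 in pDC_WT. It passed without pDC_TG replicate 4 (log2FC 1.84, adjusted p = 0.0378) and by DESeq2 (adjusted p = 0.0408). Rab37 stood at 2.57, 2.65, 2.80 and 7.34 CPM against 0.214 to 2.97 CPM with a median of 1.82, with the highest value in replicate 4, the library with the neutrophil markers. Some abundant switches among these 37, and Rab22a at 42.2 ± 4.76 CPM in pDC_WT, showed small differences with small errors. Their log2FC was -0.03 (SE 0.07) for Rab7, 0.07 (SE 0.09) for Rab1b, 0.03 (SE 0.09) for Rab14, 0.05 (SE 0.10) for Rab5a and -0.11 (SE 0.14) for Rab22a. Other abundant members did pass, as given above: Rab33b, Rab8a, Rab8b, Rab10, Rab11a and Rab11b. The pDC-high members Rab6b, Rab3d and Rab24 gave log2FC of 0.07, -0.23 and 0.19 with adjusted p of 0.96, 0.364 and 0.406, and Rab27a gave 0.29 (adjusted p = 0.436). Rab32, Rab31, Rab30, Rab35 and Rab34 also did not pass, at -0.14, 0.43, -0.48, -0.06 and -1.90.

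**Figure D4:**
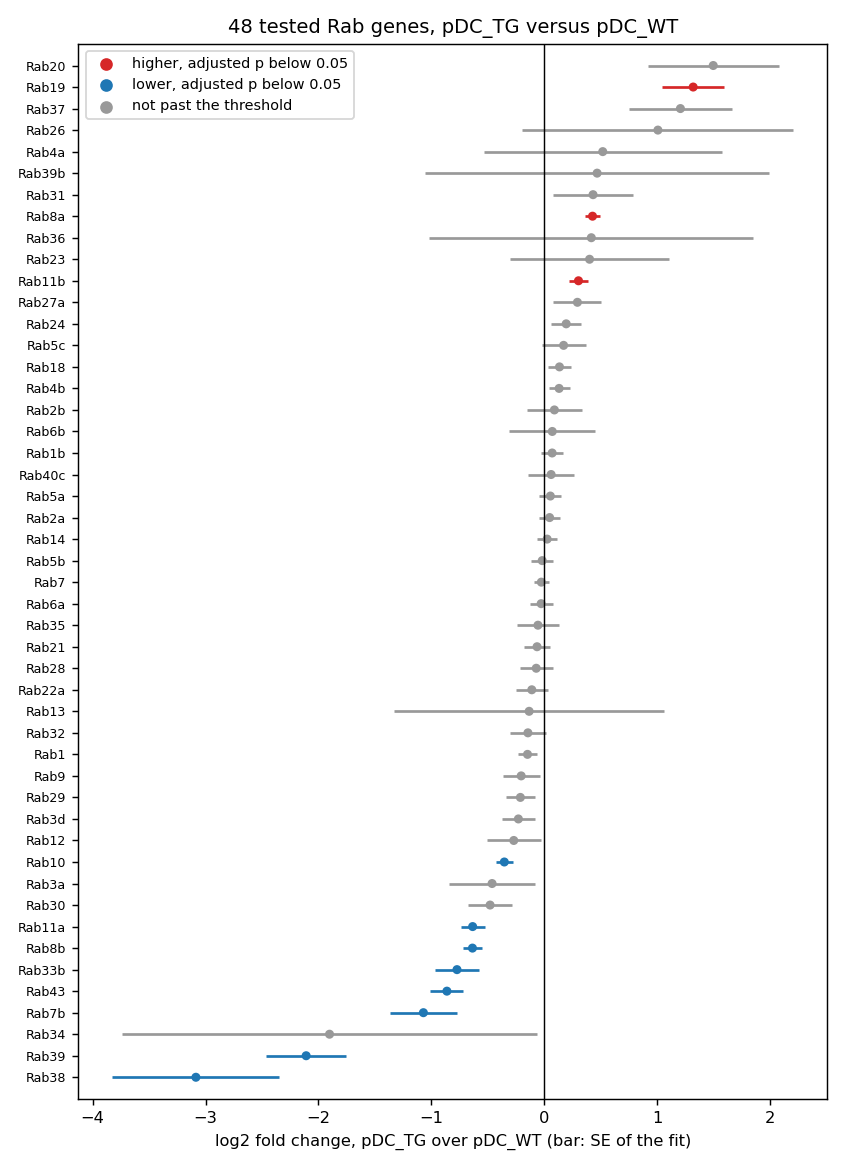
Log2 fold change of pDC_TG over pDC_WT for each of the 48 tested Rab genes, sorted, with bars for the SE of the fit; red marks genes that rose, blue genes that fell and grey genes that did not pass. The 11 coloured genes run from Rab38 at -3.09 to Rab19 at 1.32, and most grey genes lie close to 0.

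The balance within pairs of related genes was described per kilobase, as the share of one member in the sum of both. The pairs were chosen after the values were seen and carry no test. Rab8a made up 56.1% ± 2.85 of Rab8a plus Rab8b in pDC_WT and 72.8% ± 3.49 in pDC_TG, with libraries from 51.9% to 59.0% and from 69.1% to 77.5%. Its share was 37.7% ± 2.66 in cDC1_WT and 52.4% ± 3.03 in cDC2_WT. Rab11a made up 61.6% ± 5.97 of its pair in pDC_WT and 45.8% ± 1.33 in pDC_TG, with libraries from 50.9% to 68.5% and from 44.0% to 47.2%. In cDC1_WT its share was 76.5% ± 2.95 and in cDC2_WT 58.4% ± 2.77. In both pairs the pDC_TG libraries lay outside the pDC_WT range. Rab19 made up 19.8% ± 8.09 of Rab19 plus Rab43 in pDC_WT and 52.5% ± 6.25 in pDC_TG.

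In other pairs the populations differed, while the ranges of pDC_WT and pDC_TG overlapped. Rab7b held 38.2% of Rab7 plus Rab7b in cDC1_WT and under 1% in the other groups. Rab31 held 78.9% of Rab22a plus Rab31 in cDC1_WT, 77.5% in cDC2_WT, 9.15% in pDC_WT and 13.2% in pDC_TG. Rab6b held 26.8% of Rab6a plus Rab6b in pDC_WT, 28.1% in pDC_TG, 6.45% in cDC2_WT and 1.48% in cDC1_WT.

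**Figure D5:**
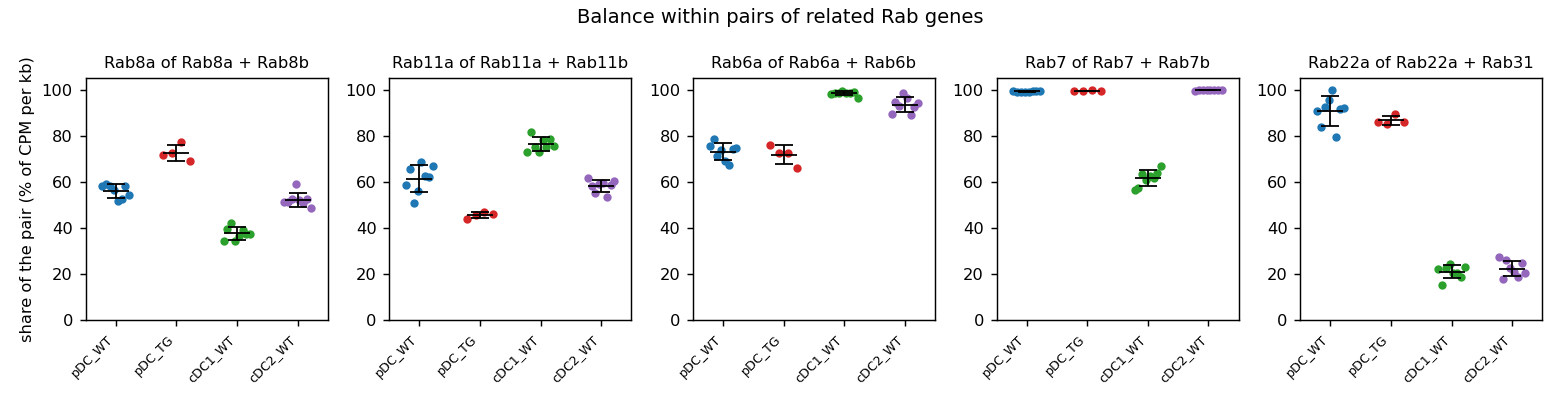
Share of the first-named gene in 5 pairs of related Rab genes, as a percentage of the pair's summed CPM per kilobase, with 1 point per library and bars at the mean ± SD for the 4 groups. Rab8a has a larger share and Rab11a a smaller share in pDC_TG than in any pDC_WT library, and the Rab7 and Rab22a shares are smallest in the cDC groups where Rab7b or Rab31 is high.

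The machinery that switches and reads Rab proteins was examined through 131 further genes, of which 120 were tested. In pDC_TG against pDC_WT 10 rose and 7 fell, 14.2% against 14.8% of all genes, with a median log2FC of -0.04. Without pDC_TG replicate 4 the falls numbered 3, by DESeq2 12, and with pDC_WT replicates 1 to 4 alone the rises numbered 5. By role, 3 of 34 exchange factors rose and 2 fell, 4 of 34 GTPase-activating proteins rose and 1 fell, 3 of 44 effectors rose and 3 fell, and 1 of 8 genes of prenylation and the membrane cycle fell. The GTPase-activating protein gene Rabgap1l fell (log2FC -0.86, SE 0.16, adjusted p = 0.000245), with 495 ± 54.7 CPM in pDC_WT and 272 ± 20.6 CPM in pDC_TG and no overlap. Tbc1d4, the GTPase-activating protein AS160 that acts on Rab8a, Rab10 and Rab14, rose to 54.4 ± 7.51 CPM in pDC_TG, compared with 20.7 ± 8.27 CPM in the pDC_WT libraries (log2FC 1.40, SE 0.23, adjusted p = 4e-05). A rise was also measured for Fscn1, an actin-bundling protein that can act with Rab35, to 27.6 ± 5.43 CPM in pDC_TG from 11.6 ± 3.40 CPM in pDC_WT (log2FC 1.25, SE 0.21, adjusted p = 4.74e-05).

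For Rin3, an exchange factor for Rab5 proteins, the means were 36.8 ± 11.5 CPM with the Cre and 18.7 ± 6.29 CPM without it, a rise (log2FC 0.97, SE 0.20, adjusted p = 0.0008), and its adjusted p was 0.0599 with pDC_WT replicates 1 to 4 alone. Mical1, which oxidises actin and binds Rab8 proteins, rose from 76.5 ± 8.04 to 113 ± 15.5 CPM, and Dennd3, an exchange factor for Rab12, from 24.6 ± 8.45 to 56.8 ± 19.3 CPM (log2FC 0.57 and 1.21). Rab12 itself did not pass, at log2FC -0.27.

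The same machinery was compared between the WT populations. Against cDC1_WT 34 of 120 were higher and 35 lower in pDC_WT, 57.5% against 60.9% of all genes, and against cDC2_WT 30 were higher and 42 lower, 60.0% against 57.1%. Between cDC1_WT and cDC2_WT 14 were higher in cDC1_WT, 11.7% against 22.8% of all genes, and 31 were lower, 25.8% against 23.4%. Rabgap1l was highest in pDC_WT at 495 ± 54.7 CPM, against 71.6 ± 14.3 in cDC1_WT and 22.6 ± 5.64 in cDC2_WT (log2FC 4.45, SE 0.15, adjusted p = 2.08e-21 against cDC2_WT). Evi5, a GTPase-activating protein, and Dennd6a, an exchange factor for Rab14, were also highest in pDC_WT among the WT groups, at 70.7 ± 15.3 and 143 ± 24.2 CPM (log2FC 2.98 and 1.70 over cDC1_WT). Tbc1d9, a further GTPase-activating protein, was high in the cDC groups, with 260.3 ± 62.2 CPM in cDC1_WT, 258 ± 30.2 in cDC2_WT and 2.56 ± 1.56 in pDC_WT (log2FC -6.67, SE 0.28, adjusted p = 2.22e-18). Tbc1d4 was highest in cDC2_WT at 1137 ± 157 CPM and next in cDC1_WT at 455 ± 45.8 CPM (log2FC -1.32), and Fscn1 stood at 219 ± 29.5 and 193 ± 55.3 CPM in these groups.

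Lrrk2, the kinase that phosphorylates Rab8a, Rab10 and other Rab proteins, averaged 208 ± 26.3 CPM in cDC2_WT, 151 ± 27.5 in cDC1_WT and 5.98 ± 3.62 in pDC_WT (log2FC -5.12, SE 0.31, adjusted p = 8.68e-15 against cDC2_WT). Gdi2, a GDP dissociation inhibitor, was higher in both cDC groups, at 976 ± 56.4 and 1067 ± 33.4 CPM, than in pDC_WT at 541 ± 62.2 CPM (log2FC -0.85 and -0.98). Between the cDC populations, Rin2 and Dennd3 were higher in cDC2_WT, at 78.6 ± 8.66 and 138 ± 27.4 CPM against 2.54 ± 1.96 and 11.4 ± 5.18 in cDC1_WT (log2FC -4.95 and -3.59). Myo5a, the motor that carries Rab27a granules, and Usp6nl, a GTPase-activating protein for Rab5, were likewise lower in cDC1_WT (log2FC -1.61 and -1.42). Dennd2d, an exchange factor linked to Rab9, was higher in cDC1_WT, at 49.1 ± 6.37 against 4.18 ± 2.59 CPM (log2FC 3.55, SE 0.28, adjusted p = 5.92e-12). Sytl1, an effector of Rab27a that was singled out after its values were seen, averaged 15.7 ± 6.85 CPM in pDC_WT and 52.4 ± 11.7 in pDC_TG. It had no count in any cDC1_WT library, where 3 counts over the group would be 0.0158 CPM, and reached 0.755 CPM in 1 library of cDC2_WT.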

How the data were processed

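RNA was sequenced from 4 ng of total RNA per sample after 15 PCR cycles of library amplification, as single 75 bp reads without strand on 2 flow cells, per the labels' protocols. The submitters' processing notes name the build mm10 and the tools TopHat2 2.1.0, SAMtools 0.1.18, Trimmomatic 0.35 and FastQC 0.11.4. Which counting tool and annotation were used, and which flow cell held which library, is not given in the sources used here. For each of 28 libraries the authors deposited raw read counts per gene symbol, without normalization. Lines for reads outside genes (8.23% to 18.7%) and ambiguous reads (1.04% to 1.57%) were left out.

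Counts were fitted in R 4.3.3 with edgeR 4.0.16 (TMM, filterByExpr with minimum count 10 and minimum total 15, robust quasi-likelihood fit of all libraries, two-sided tests). DESeq2 1.42.0, other scalings, no filter, WT replicates 1 to 4 or 5 to 8, the compared groups alone, a replicate block and leaving out each pDC_TG library were alternatives. The tests were checked on counts simulated with the same spread for every gene and independent libraries, which does not represent the varying spread of these data. Exonic lengths and overlaps came from GENCODE M21, where Rab1 was matched as Rab1a. The labels number the mice within each group, without saying whether a number means the same mice in different populations. Nothing states how the libraries were handled in parallel, so p-values measure the spread between these libraries, which may in part be technical. No pair of libraries in a group agreed within sampling noise (lowest chi-square per degree of freedom 33.6). Intervals were not needed, and the floor of 3 counts covers counting error only.

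The Rab genes, the lists and the rule for named genes were chosen with earlier results of these data known. Named were every Rab gene past the threshold in pDC_TG against pDC_WT. For each WT comparison up to 8 Rab genes per direction were named, those with the largest change whose higher group reached 10 CPM and whose libraries did not overlap. Rab genes known from dendritic cell work and up to 6 regulators per comparison with the smallest adjusted p were added. Other members appear to complete the account, chosen after their values were seen.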

Additional observations from a re-analysis of the deposited data

Results flagged for a closer look

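In 7 of 115 sets of library levels examined for the named Rab genes (each group whose mean reached 1 CPM), 1 library stood far from the rest of its group by Dixon's criterion at 95%. Chance alone flags about 1 in 20 groups. Among pDC_TG libraries, replicate 4 was high for Rab37, at 7.34 CPM where the next was 2.80 CPM, and for Rab6b, at 58.1 CPM where the next was 38.0 CPM. This library also carried the neutrophil markers, and their part in these levels was not tested. Replicate 3 of pDC_TG was low for Rab30, at 3.33 CPM against 8.55 CPM in the nearest library, and high for Rab8a, at 304 CPM against 275 CPM. Among WT libraries, Rab11b was low in cDC1_WT replicate 2 at 180.4 CPM, with the nearest at 209.9 CPM. Rab27a was low in pDC_WT replicate 1 at 23.0 CPM against 35.8 CPM in the nearest library, and Rab6b was high in cDC1_WT replicate 8 at 7.49 CPM against 3.28 CPM.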

How the results depend on the processing

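The Rab counts in pDC_TG against pDC_WT stayed within 1.5 times of 3 rises and 8 falls in every alternative run, and leaving out each pDC_TG library in turn gave 3 to 4 rises and 7 to 8 falls. The same was true of the Rab counts in cDC1_WT against cDC2_WT. Rab genes higher in pDC_WT than in cDC1_WT fell from 14 to 8 with WT replicates 1 to 4 alone, where fewer samples were fitted, and those higher than in cDC2_WT rose from 12 to 19 with total counts alone. Among regulators and effectors, the rises in pDC_TG went from 10 to 5 with WT replicates 1 to 4 alone and the falls from 7 to 12 by DESeq2. Leaving out each pDC_TG library gave 7 to 9 rises and 3 to 9 falls, the lowest without replicate 4. Those lower in pDC_WT than in cDC1_WT went from 35 to 22 with WT replicates 5 to 8 alone. The cause of these shifts was otherwise not tested. One direction reversed: Rab5a in pDC_WT against cDC1_WT passed as higher with total counts alone, at log2FC 0.21. Of 24 named results that did not pass, 7 of 225 alternative values passed in the same direction and 1 in the opposite one.

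Deviations of same-numbered libraries correlated at -0.03 to 0.04 for pDC_TG and pDC_WT and, weakly but positively in every pair, at 0.02 to 0.11 between WT groups. All but 1 pair were below 0.1, the level set for pairing, so the numbers were not taken as pairs. With a replicate block the Rab counts were 3 rises and 8 falls in pDC_TG, 14 higher and 20 lower in pDC_WT against cDC1_WT, 14 and 13 against cDC2_WT, and 16 and 9 in cDC1_WT against cDC2_WT. Libraries correlated best with their own number in 0 of 4 cases for pDC_TG and pDC_WT, 7 of 8 for pDC_WT and cDC1_WT, 6 of 8 for pDC_WT and cDC2_WT and 8 of 8 for cDC1_WT and cDC2_WT, a hint from the data that WT numbers may pair, not from the design. Counting depth limits Rab38, Rab20 and Rab7b in pDC.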
